A study of Mus musculus with 12 samples.

Results

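The 40 genes described here encode the machinery of mitosis, from the kinase that drives cells into M phase to the proteins that split the cell at its end. They were taken by gene name from a count table of 54532 genes. All 40 were found in it, and all 40 passed the filter on low counts in each comparison, with 393 to 16512 counts per gene and library. They fall into 7 functions: 7 genes of the M-phase entry engine, 7 of chromosome condensation and structure, 5 of the kinetochore and centromere, 4 of the chromosomal passenger complex, 6 of the spindle checkpoint and anaphase, 5 of spindle assembly and 6 of cytokinesis.

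RNA was sequenced in bulk from testes of newborn mice of the strain Tg(Pou5f1-EGFP)2Mnn. In this line a GFP transgene under Pou5f1 (OCT4) regulatory sequence marks the germ cells, and both populations and both treatments came from it. Dexamethasone (dex) is a man-made steroid that activates the glucocorticoid receptor. It was given intraperitoneally to the dams at E17.5 and E18.5 (embryonic days) at 10 μg per g of body weight, and under the skin of the pups at the same weight-scaled dose on postnatal day 0. The control animals received saline on the same schedule. On postnatal day 1 the testes were sorted into GFP-positive germ cells (dex germ and saline germ, 3 libraries each) and GFP-negative somatic cells (dex somatic and saline somatic, 3 libraries each). According to the study's methods a library held testes pooled from separately dosed litters. The somatic libraries are a mixture of every GFP-negative cell type of the testis.

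The 12 libraries held 18459692 to 25178477 counts, with 1.53% to 2.85% of them from mitochondrial genes. The sort was checked against marker genes. The summed level of 10 germ cell markers was 2602 to 2946 CPM (counts scaled to library size) in the germ libraries and 7.47 to 9.57 CPM in the somatic libraries, and in every somatic library Dppa3 was at no more than 3 counts. Sertoli cell markers summed to 56.1 to 104 CPM in germ and 6533 to 7345 CPM in somatic libraries, and peritubular and stromal markers to 143 to 197 CPM and 10791 to 19678 CPM. As a share of the saline somatic sum, the saline germ sum was 1.33% for Sertoli and 1.32% for peritubular and stromal markers. The other lists separated less, at 2.88% for erythroid, 6.47% for Leydig, 16.5% for macrophage, 28.7% for endothelial and 160% for lymphocyte markers.

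As background, a cell enters mitosis when the kinase CDK1 is bound by A- and B-type cyclins and its inhibitory phosphates are removed. Condensin then compacts the chromosomes, kinetochores are built on the centromeres, the spindle checkpoint holds anaphase until every kinetochore is attached, and the central spindle and contractile ring divide the cell. Transcripts of these proteins accumulate together in G2 and M phase, under a repressor and activator complex that reads the cell cycle homology region and is helped by the CCAAT-binding factor NF-Y. Germ cells of the newborn testis are prospermatogonia, which sit in mitotic arrest before they resume division, whereas Sertoli and other somatic cells of that age divide.

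The promoters of these genes share sequence words that were not used to choose them. RefSeq windows on GRCm38.p6, from 250 bases before to 50 bases after each annotated start, were available by gene symbol for 33 of the 40 genes. Tpx2, Kif20a, Ccna2, Incenp, Cdc25c, Aurkb and Smc4 had no entry in the table. Stretches are given for Mki67, Ncapd2, Top2a and Prc1, which passed the test in a dex comparison, for Cdk1 and Espl1, which stood lowest and highest in germ relative to somatic cells, and for Kif11 and Cdc20, which stand for the spindle and the checkpoint. Each is written 5′ to 3′ on the strand of its gene, with 2 words in capitals: TTTGAA or TTCGAA (the cell cycle homology region; TTCAAA is the first of these read on the other strand, and TTCGAA reads alike on both) and CCAAT (the CCAAT box; ATTGG is the same word on the other strand).
Mki67: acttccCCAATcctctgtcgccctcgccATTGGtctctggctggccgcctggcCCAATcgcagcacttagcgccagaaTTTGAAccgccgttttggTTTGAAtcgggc
Ncapd2: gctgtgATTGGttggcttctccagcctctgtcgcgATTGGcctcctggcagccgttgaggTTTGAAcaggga
Top2a: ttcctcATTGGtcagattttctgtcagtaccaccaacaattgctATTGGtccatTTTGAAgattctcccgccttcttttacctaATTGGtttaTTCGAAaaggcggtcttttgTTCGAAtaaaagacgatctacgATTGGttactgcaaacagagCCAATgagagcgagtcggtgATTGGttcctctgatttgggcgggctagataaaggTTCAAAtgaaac
Prc1: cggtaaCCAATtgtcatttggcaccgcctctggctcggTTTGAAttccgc
Cdk1: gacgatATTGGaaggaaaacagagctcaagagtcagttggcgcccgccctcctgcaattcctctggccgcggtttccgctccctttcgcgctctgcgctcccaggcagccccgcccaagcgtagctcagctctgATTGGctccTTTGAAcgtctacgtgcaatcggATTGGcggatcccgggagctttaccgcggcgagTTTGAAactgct
Kif11: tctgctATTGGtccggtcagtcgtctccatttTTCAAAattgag
Cdc20: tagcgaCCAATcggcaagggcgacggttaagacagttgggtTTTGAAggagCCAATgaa
Espl1: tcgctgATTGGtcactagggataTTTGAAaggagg
Mki67 carried 2 TTTGAA words downstream of 3 CCAAT boxes, in chr7:135716466-135716573 on the minus strand. In Ncapd2 (chr6:125191698-125191769, minus strand) 1 cell cycle word lay downstream of 2 CCAAT boxes. The stretch of Top2a (chr11:99024201-99024422, minus strand) held 4 cell cycle words and 6 CCAAT boxes, the most of the 8 genes shown. Shorter stretches with 1 word of each kind lay before the starts of Prc1 (chr7:80294408-80294457, plus strand), Kif11 (chr19:37376331-37376374, plus strand) and Espl1 (chr15:102296243-102296277, plus strand). Cdk1 (chr10:69352916-69353126, minus strand) had 2 cell cycle words and 3 CCAAT boxes, and Cdc20 (chr4:118437344-118437402, minus strand) had 1 and 2. RefSeq starts differ somewhat from those of the deposited gene models, and a stretch was ended no more than 30 bases into the deposited model.

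A cell cycle homology word on either strand occurred in the window of 26 of the 33 genes, or 78.8%, against 21.7% of 27025 genes of the whole table and 16.8% of the 13436 genes that were tested in a dex comparison and had a window. The CCAAT box occurred in 75.8% of the 33, against 41.1% of all and 42.5% of the tested genes. Both words together were found in 69.7% of the 33 and in 9.65% of all. The 5 genes with neither word were Ncaph, Nuf2, Birc5, Mad2l1 and Nusap1. Of the 36 cell cycle words, 26 began no more than 100 bases before the start or downstream of it, and in 1 case a cell cycle word shared bases with a CCAAT box. Many of the 26 lay downstream, as in Bub1 (base 15) and Plk1 (base 31), whereas the stretches shown hold only words before the start. Positions of the words were not counted in genes outside the list. E2F words (TTTGGCGC, TTTGCCGC, TTTCGCGC or TTTCCCGC, either strand), which are typical of S-phase genes, were found in 9.09% of the 33 windows, 4.21% of the tested genes and 2.61% of all. Among 93 other mitosis genes with a window 48.4% had the cell cycle word, and among 35 DNA replication genes 20% did, while 40% of the latter had an E2F word. The half-site of the glucocorticoid receptor (AGAACA, either strand) was found in 12.1% of the 33 windows, in 15.8% of the genes tested in a dex comparison, in 11.8% of the other mitosis genes and in 21.3% of all. A match of letters is a description of the window and not a bound site. The median log2 fold change with dex was -0.23 in germ cells and -0.25 in somatic cells for the 26 genes with the cell cycle word, and -0.23 and -0.20 for the 7 genes with a window without it.

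**Figure D1:**
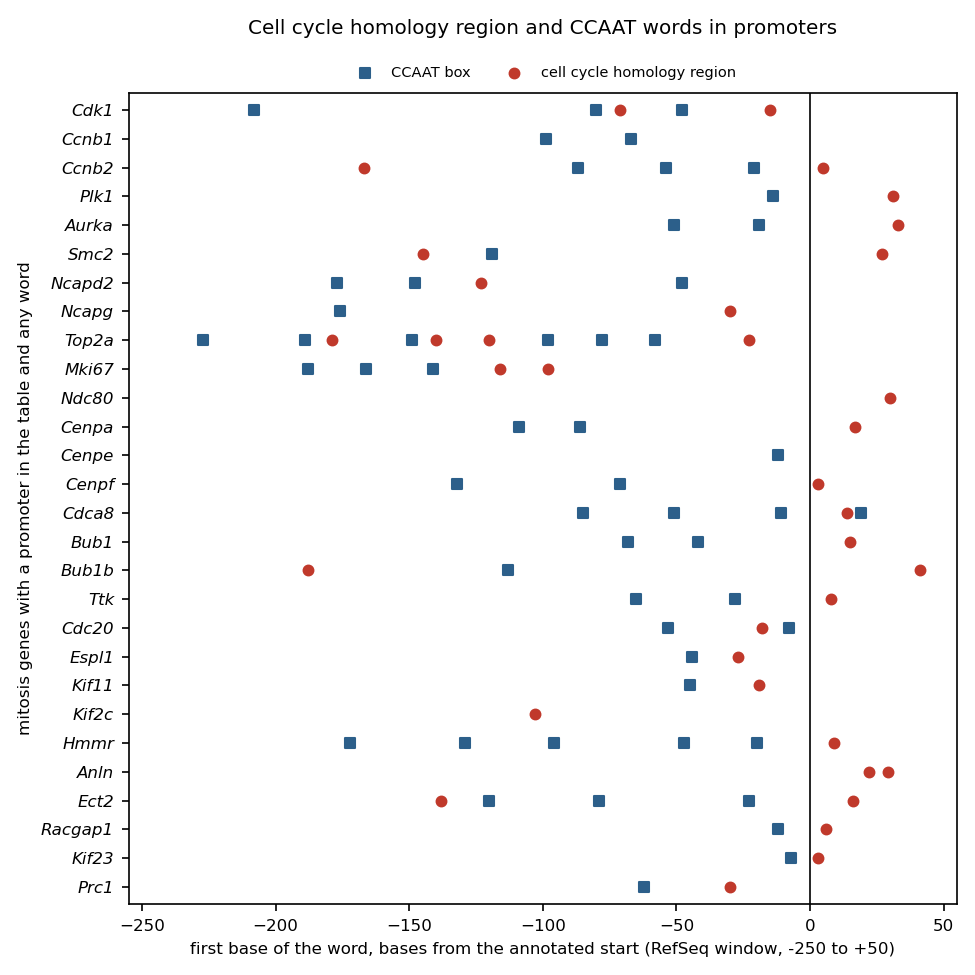
Positions of cell cycle homology region words (circles) and CCAAT boxes (squares) in RefSeq promoter windows, in bases from the annotated start (x axis), for the 28 mitosis genes (y axis) that held either. Of the 36 circles, 26 begin no more than 100 bases upstream of the start or after it, and most CCAAT boxes lie upstream of the start.

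Under saline, the mitosis genes were on the whole at a higher level in germ than in somatic cells. The log2 ratio of germ to somatic was above 0 for 31 of 40 genes, with a median of 0.79, and 26 genes were called higher in germ cells and 7 lower (edgeR quasi-likelihood test, Benjamini-Hochberg adjusted p at or under 0.05). Of all 18870 genes tested, 39.8% were called higher in germ and 36.7% lower, so that the share of the mitosis genes that was higher stood above the background and the share that was lower stood under it. All 6 genes of the spindle checkpoint and anaphase were called higher in germ cells, with a median log2 ratio of 1.31. For the kinetochore the median was 1.25 and 4 of 5 were called higher, and for condensation it was 0.62 and 6 of 7 were. The M-phase entry engine (3 higher, 2 lower, median 0.14), the passenger complex (2 higher, 2 lower, median 0.39), spindle assembly (2 higher, 1 lower, median -0.14) and cytokinesis (3 higher, 2 lower, median 0.50) were mixed.

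Per length, in FPKM as deposited, the highest of these genes in saline germ cells was Cdc20, the activator of the anaphase-promoting complex, at 119 ± 8.45 (SD, n = 3), against 63.1 ± 0.815 in saline somatic cells. Next came Incenp, the scaffold of the passenger complex, at 90.8 ± 4.50 and 39.8 ± 0.875. Top2a, which untangles replicated DNA, stood at 82.2 ± 3.34 and 40.7 ± 0.391. The lowest in germ cells were Nuf2, of the kinetochore, at 8.83 ± 0.913 and the microtubule-binding Hmmr at 9.0 ± 0.278. Espl1, the protease separase that cleaves cohesin at anaphase, had the largest ratio, at 34.3 ± 0.752 FPKM in germ and 7.48 ± 0.717 FPKM in somatic cells, a log2 ratio of 2.07 (SE 0.09, adjusted p = 1.04e-09). Cenpf and Ccnb1 followed with log2 ratios of 1.56 (SE 0.09, adjusted p = 1.50e-08) and 1.56 (SE 0.09, adjusted p = 8.08e-09). In the other direction Cdk1, the catalytic subunit itself, was at 11.3 ± 0.635 FPKM in germ and 24.9 ± 1.04 FPKM in somatic cells, a log2 ratio of -1.27 (SE 0.09, adjusted p = 4.97e-08). Ccnb1, a B-type cyclin that activates it, was at 61.1 ± 1.89 FPKM in germ and 19 ± 1.25 FPKM in somatic cells. By mean FPKM the kinase and this cyclin thus stood in opposite order in the populations. That ranking between genes was not tested, and it depends on the gene lengths used. The other cyclins did not show the opposite order. Ccnb2 was at 64.6 ± 2.62 FPKM in germ and 54.0 ± 1.05 FPKM in somatic cells, and Ccna2 at 53.1 ± 3.20 and 26.0 ± 1.69 FPKM. Their means were above that of Cdk1 in both populations. Birc5 (survivin), a subunit of the passenger complex, was also lower in germ cells, by a log2 ratio of -0.50 (SE 0.09, adjusted p = 0.000322), as was its partner kinase Aurkb at -0.29 (SE 0.10, adjusted p = 0.0165), while the other subunits Cdca8 and Incenp were higher at 1.26 (SE 0.08, adjusted p = 3.52e-08) and 1.07 (SE 0.08, adjusted p = 7.56e-08). Across the 40 genes the saline FPKM of germ and somatic cells had a Spearman rho of 0.63, over genes that are not independent and that share libraries and gene length.

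**Figure D2:**
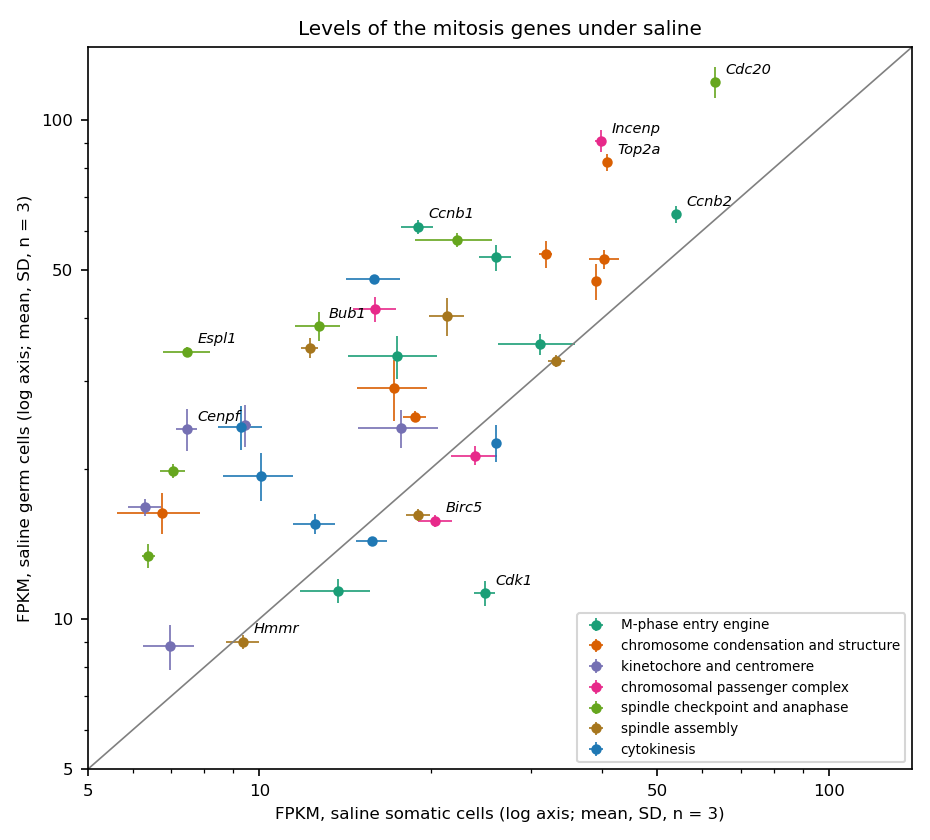
Mean FPKM of each mitosis gene in 3 saline somatic libraries (x axis) and 3 saline germ libraries (y axis), both on log axes, with SD bars and colours by function. The line marks equal levels: Espl1 lies farthest above it and Cdk1 farthest below.

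With dex, 39 of the 40 genes had a negative log2 fold change in germ cells, against 50.4% of all 18550 genes tested there. Their median was -0.23, against -0.003 over all genes. In germ cells 2 genes fell past the threshold over all genes (2 of 40, with 0.507% of all genes called lower), Mki67 and Ncapd2. In all, 24 of 40 were lower at an unadjusted p at or under 0.05, as were 7.69% of all genes. In 15 of 40 the 3 dex libraries all lay under the 3 saline libraries, as they did for 9.30% of all genes. These are bulk samples, so fewer dividing cells and less of these RNAs per cell cannot be told apart. The 40 genes were chosen with earlier results of these data known, so their counts in both populations describe a chosen list.

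In somatic cells all 40 log2 fold changes were negative, against 51.2% of all 16766 genes. The median was -0.26, against -0.01 over all genes. Prc1, Ccna2 and Top2a fell past the threshold (3 of 40, with 1.17% of all genes called lower), and Smc2, a core ATPase of condensin, lay just outside it with an adjusted p of 0.0501. At an unadjusted p at or under 0.05, 27 of 40 were lower, as were 7.21% of all genes. The dex libraries all lay under the saline libraries in 31 of 40, as they did for 12.3% of all genes. No gene of the 40 passed the threshold upward in either population.

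Both conditions held together, the dex libraries under the saline libraries in germ and in somatic cells, for 14 of the 40 genes and for 1.86% of the 15130 genes tested in both. The 14 were Ccnb1, Ccnb2, Ncapd2, Ncaph, Top2a, Mki67, Cenpa, Cenpf, Incenp, Bub1b, Cdc20, Tpx2, Kif23 and Prc1. A further 17 were so separated in somatic cells alone and Espl1 in germ cells alone. The 8 with overlapping groups in both populations were Cdc25c, Plk1, Aurka, Ncapg, Birc5, Hmmr, Anln and Ect2.

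**Figure D3:**
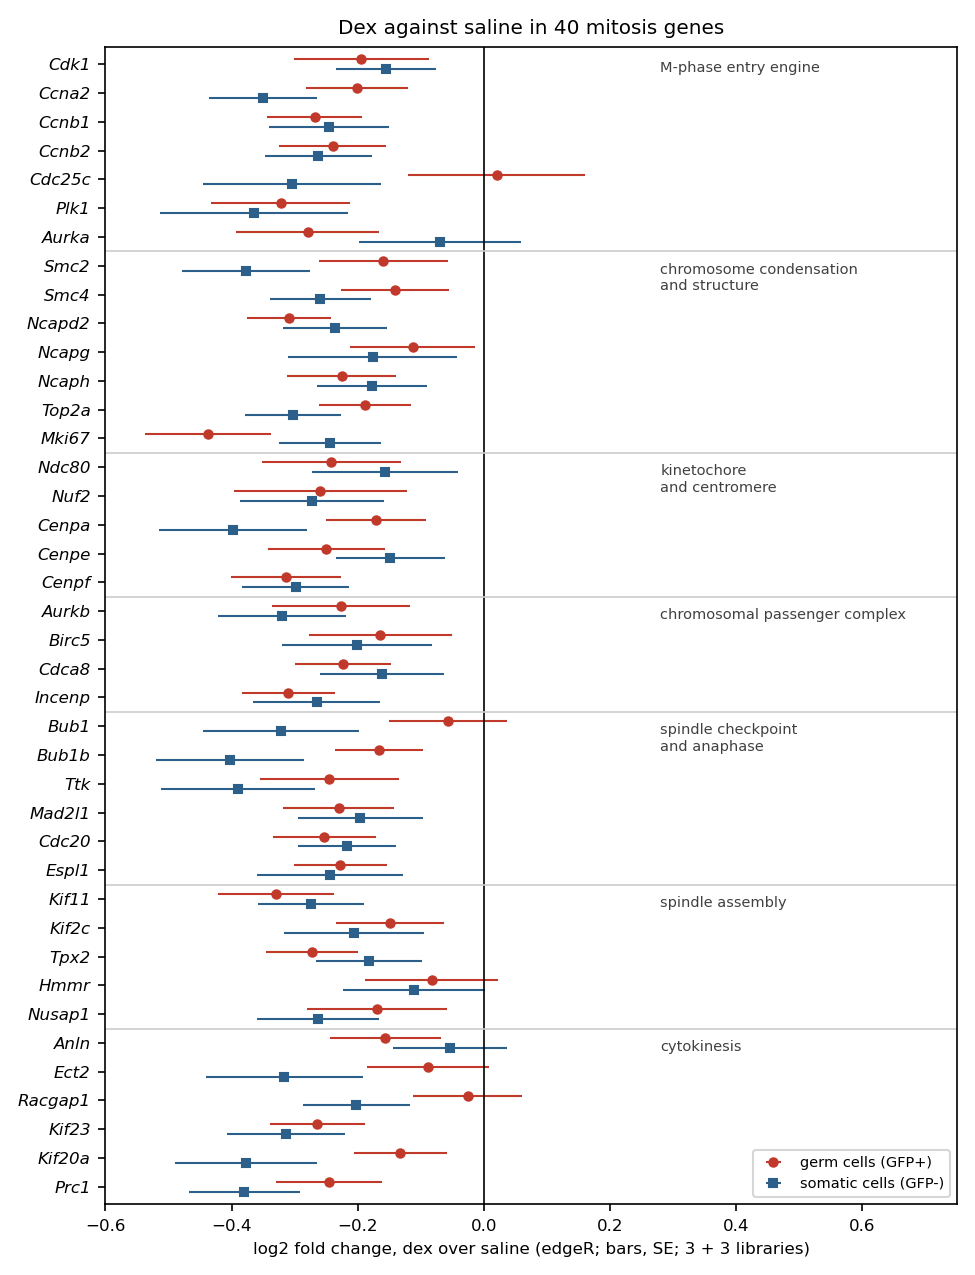
Log2 fold change of dex over saline (x axis; bars, SE of the edgeR fit, 3 dex and 3 saline libraries) for the 40 mitosis genes (y axis, by function) in germ (circles) and somatic cells (squares). Apart from Cdc25c in germ cells at 0.02 every point lies left of 0, between -0.44 and -0.03.

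Markers of other cell types differed between dex and saline libraries in both populations. In germ libraries the Sertoli markers summed to 84.7 to 104 CPM with saline and 56.1 to 69.3 CPM with dex, with 9 of 9 tested lower. The 1 called was Inha, at -0.90 (SE 0.18, adjusted p = 0.0233). Over all 18550 genes tested in germ cells 231 were called in either direction and 0.507% were called lower. The Leydig markers summed to 9.07 to 11.8 CPM with saline and 4.83 to 8.79 CPM with dex, and the erythroid markers to 7.70 to 9.22 CPM and 4.49 to 7.06 CPM. The summed Sertoli level in saline germ libraries was 1.33% of that in saline somatic libraries. Mki67 was at 431 to 511 CPM in the same saline germ libraries, and the part of it that came from somatic cells in the germ sort was not tested. Of the 10 germ cell markers Utf1 alone was called, higher with dex, at 0.55 (SE 0.12, adjusted p = 0.0448). Peritubular and stromal markers summed to 143 to 197 CPM with saline and 169 to 182 CPM with dex in germ libraries, endothelial markers to 71.8 to 81.8 CPM and 71.8 to 87.0 CPM, macrophage markers to 9.49 to 13.8 CPM and 14.9 to 17.7 CPM, and lymphocyte markers to at most 7.95 CPM and 10.2 CPM. Of the 3 macrophage markers tested in germ libraries 2 were negative, and Mrc1 was positive at a log2 fold change of 0.89, with 0 called. The mean of Mrc1 was 6.27 CPM with saline and 11.7 CPM with dex, so the higher macrophage sum followed this 1 gene. Under saline, 2 of the 7 endothelial markers were called higher in germ than in somatic cells and 4 lower. Over all genes, 39.8% were called higher and 36.7% lower. Of the lymphocyte markers, Cd79a was called higher in germ cells at 1.48 and Ptprc lower at -2.53. The endothelial and lymphocyte sums are thus not a measure of somatic cells in the germ sort alone. Lhcgr was at no more than 3 counts in every germ library, and in the dex germ libraries Fshr was too.

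In somatic libraries the peritubular and stromal markers summed to 10791 to 15028 CPM with saline and 16321 to 19678 CPM with dex. Of these 11 of 11 were higher and 6 were called (Col1a1, Col1a2, Acta2, Des, Pdgfra and Dcn). Over all 16766 genes tested there, 655 were called in either direction and 1.17% were called lower. The macrophage markers summed to 54.7 to 93.8 CPM with saline and 24.3 to 34.7 CPM with dex, with 8 of 8 lower and 3 called (Csf1r, Lyz2 and Mrc1). Erythroid markers summed to 248 to 389 CPM with saline and 82.7 to 292 CPM with dex, lymphocyte markers to 4.33 to 5.47 CPM and 0.940 to 1.88 CPM, Leydig markers to 119 to 199 CPM and 84.3 to 171 CPM, and endothelial markers to 253 to 286 CPM and 248 to 319 CPM. Gene by gene, 6 of 6 Leydig markers had a negative log2 fold change, with a median of -0.37 and Star called at -0.69 (SE 0.14, adjusted p = 0.0102). Of the endothelial markers 6 of 7 were negative, with a median of -0.49, and Tek was called at -1.23 (SE 0.29, adjusted p = 0.0267). All 4 erythroid markers tested were negative, with a median of -1.04 and Hbb-bs and Hbb-bt called, as were all 3 lymphocyte markers tested, with a median of -1.58 and Cd79a called. Sertoli markers, at 6868 to 7345 CPM with saline and 6533 to 7329 CPM with dex, had a median log2 fold change of -0.05 with 0 called. Germ cell markers summed to 8.96 to 9.57 CPM and 7.47 to 8.85 CPM. The mitosis genes are expressed by dividing cells of every type, and the part of these shifts in the lower levels of the mitosis genes was not tested.

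In germ cells the median log2 fold changes were -0.25 for the kinetochore, -0.24 for M-phase entry, -0.23 for the checkpoint, -0.22 for the passenger complex, -0.19 for condensation, -0.17 for spindle assembly and -0.14 for cytokinesis. Within M-phase entry the germ values ran from -0.32 (Plk1) to 0.02 (Cdc25c). In somatic cells the order was another, with -0.31 for cytokinesis, -0.28 for the checkpoint, -0.27 for the kinetochore, -0.26 for M-phase entry, -0.24 for condensation, -0.23 for the passenger complex and -0.21 for spindle assembly. Cytokinesis genes thus stood last in germ and first in somatic cells, and spindle assembly stood near the end in both. No test was run between functions.

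The 3 dex germ libraries were not alike. Dex germ library 2 lay under every saline germ library in 40 of 40 genes, library 1 in 31 and library 3 in 15. Their median log2 ratios to the saline mean were -0.31, -0.25 and -0.05, and the saline germ libraries themselves ran from -0.04 to 0.03. Library 3 was the highest of the dex germ libraries for 36 genes. Library 2 had the most counts of all, 25178477, against 20461606 in library 3 and 20483369 in library 1, and its part in the result was not tested. Without library 2 the median of the 40 genes was -0.16, with 36 of 40 below 0 and none called. Without library 3 it was -0.30, with 40 of 40 below 0 and Mki67 called. The dex somatic libraries were more even, each under all saline somatic libraries in 35 or 36 genes, with median log2 ratios of -0.35, -0.26 and -0.24.

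**Figure D4:**
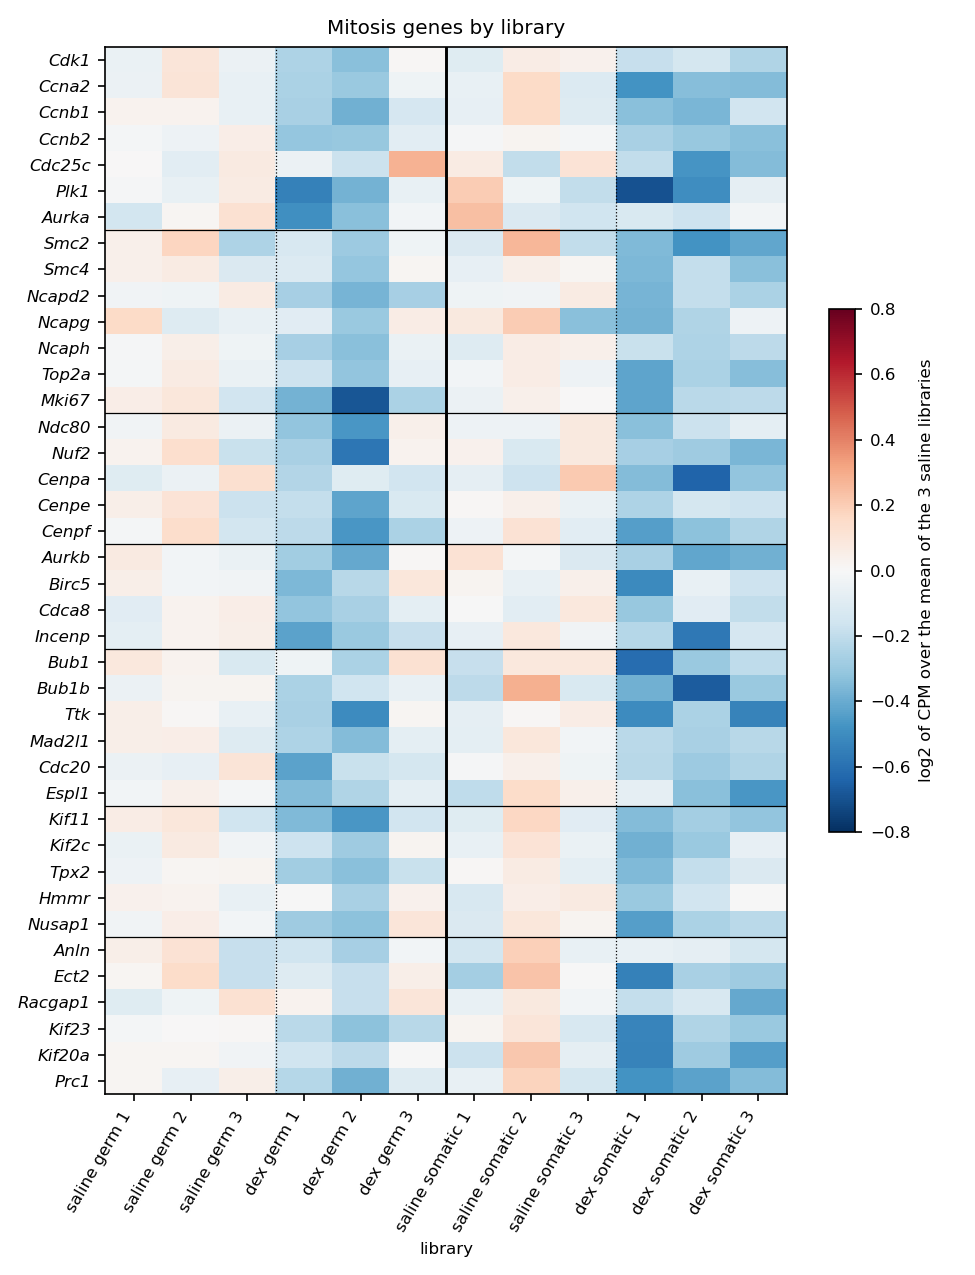
Log2 of each library's CPM over the mean of the 3 saline libraries of its population, for the 40 mitosis genes (rows, by function) in 12 libraries (columns). Dex germ libraries 1 and 2 and all 3 dex somatic libraries are mostly below 0 (blue), and dex germ library 3 is close to the saline level in many genes, with a median of -0.05.

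At M-phase entry, Cdk1, the kinase that starts mitosis, was at 53.7, 59.5 and 54 CPM in saline germ libraries 1, 2 and 3 and at 47, 44.1 and 56.2 CPM in dex germ libraries 1, 2 and 3. The somatic values, in the same order, were 119.9, 134 and 131 CPM with saline and 113, 116 and 109 CPM with dex. Dex germ library 3 sat among the saline libraries, whereas in somatic cells the groups did not overlap. With dex the log2 fold change was -0.19 (SE 0.11, adjusted p = 0.434) in germ and -0.15 (SE 0.08, adjusted p = 0.364) in somatic cells.

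Ccna2 (cyclin A), which acts on CDK1 ahead of cyclin B, was at 210.2, 233 and 209 CPM in saline germ and 182, 177 and 212 CPM in dex germ libraries. In somatic cells the values were 107, 124 and 103 CPM with saline and 79.7, 87.8 and 87.4 CPM with dex. Again dex germ library 3 overlapped the saline group and the somatic groups stood apart. Ccna2 fell in somatic cells by 21.5%, a log2 fold change of -0.35 (SE 0.09, adjusted p = 0.031), and had a log2 fold change of -0.20 (SE 0.08, adjusted p = 0.257) in germ cells. Leaving out any 1 of the 6 somatic libraries took it over the threshold, with adjusted p of 0.0643 to 0.140. The gene (chr3:36564865-36572150, mm10) overlaps Exosc9, whose counts came to 16.6% of its own.

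For Ccnb1 (cyclin B1) the germ libraries gave 264, 263 and 248 CPM with saline and 216, 198 and 235 CPM with dex. Somatic libraries gave 79.9, 93.3 and 78 CPM and 66.4, 64.9 and 75.2 CPM. Neither population had an overlap between the groups, and the log2 fold changes were close to each other, -0.27 (SE 0.08, adjusted p = 0.0996) in germ and -0.25 (SE 0.10, adjusted p = 0.204) in somatic cells. Of its sequence words 20.7% recur in other genes, chiefly the pseudogene Ccnb1-ps, so its counts are less certain.

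Cdc25c, the phosphatase that takes the inhibitory phosphates off CDK1, was the exception in germ cells. There it was at 22.3, 21 and 23.3 CPM with saline and 21.4, 19.7 and 26.9 CPM with dex, and dex library 3 was the highest of the 6. The somatic libraries had it at 29, 24.3 and 30.0 CPM and 24.3, 20.0 and 21.9 CPM, with the lowest saline and the highest dex library level with each other. This gave a log2 fold change of 0.02 (SE 0.14, adjusted p = 0.969) in germ and -0.30 (SE 0.14, adjusted p = 0.303) in somatic cells. Leaving out dex germ library 3 turned the germ value to -0.12. The gene overlaps Gm3550, whose counts were 8.58% of its own.

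Plk1, a kinase needed for mitotic entry and spindle poles, was at 77.7, 75.2 and 81.9 CPM in saline germ and 53.9, 60.1 and 75.3 CPM in dex germ libraries. Its somatic values were 82.1, 69.6 and 62.1 CPM with saline and 44, 50.5 and 67.9 CPM with dex. In each population dex library 3 reached into the saline range while the other two dex libraries lay well under it. The fitted log2 fold change was -0.32 (SE 0.11, adjusted p = 0.175) in germ and -0.36 (SE 0.15, adjusted p = 0.23) in somatic cells, the latter with the largest SE of the 40.

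Aurka, the spindle pole kinase that activates PLK1, was at 76.9, 86.3 and 92.6 CPM and 60.8, 67.5 and 83.9 CPM in saline and dex germ libraries. Somatic cells had it at 54.4, 42.5 and 41.2 CPM and 42.3, 41 and 45.3 CPM. The somatic groups were interleaved, with saline library 1 alone above the rest, and without that library the somatic value was 0.089. Its log2 fold change was -0.28 (SE 0.11, adjusted p = 0.258) in germ and -0.07 (SE 0.13, adjusted p = 0.856) in somatic cells. Ccnb2, the remaining gene of the function, had -0.24 in germ and -0.26 in somatic cells, separated in both.

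Among genes of condensation and structure, Ncapd2, a regulatory subunit of condensin I (chr6:125168007-125191701, mm10), was at 324, 322 and 345 CPM in saline germ and 275, 256 and 275 CPM in dex germ libraries. The 3 dex values were close to each other and well under the saline values. Ncapd2 fell in germ cells by 19.3%, a log2 fold change of -0.31 (SE 0.07, adjusted p = 0.0372), the smallest adjusted p of the 40 genes there. The somatic values were 258, 259 and 276 CPM with saline and 204, 232 and 222 CPM with dex, also without overlap, at -0.24 (SE 0.08, adjusted p = 0.147). Leaving out any 1 of the 6 germ libraries took Ncapd2 over the threshold, with adjusted p of 0.0645 to 0.144.

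Mki67 (chr7:135689784-135716361, mm10), the Ki-67 protein that coats mitotic chromosomes and is widely used as a marker of cycling cells, was at 496, 511 and 431 CPM in saline germ and 369, 298 and 403 CPM in dex germ libraries. It had the largest decrease of the 40 genes in germ cells, 26.2%, with a log2 fold change of -0.44 (SE 0.10, adjusted p = 0.0483). Library 2 was the lowest and library 3 the highest of the dex group, and all 3 lay under the saline group. In somatic cells Mki67 was at 397, 421 and 411 CPM with saline and 307, 353 and 354 CPM with dex, separated but not called, at -0.24 (SE 0.08, adjusted p = 0.125). Without dex germ library 1 or 2, or saline germ library 1 or 2, the germ call was lost, with adjusted p of 0.062 to 0.210.

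Top2a (chr11:98992943-99024189, mm10) was at 378, 399.9 and 373 CPM in saline somatic and 286, 321 and 303 CPM in dex somatic libraries, with a wide gap between the groups. It fell in somatic cells by 18.9%, a log2 fold change of -0.30 (SE 0.08, adjusted p = 0.0366). In germ cells it was at 736, 779.7 and 715 CPM with saline and 663, 598 and 711 CPM with dex, where dex library 3 and saline library 3 nearly met, at -0.19 (SE 0.07, adjusted p = 0.233). Of the 6 fits that left out 1 library, the one without dex somatic library 2 kept the somatic call, and the other 5 gave adjusted p of 0.0522 to 0.140. Of the other condensin genes, Smc2 had -0.38 in somatic and -0.16 in germ cells, Smc4 -0.26 and -0.14, Ncaph -0.18 and -0.23, and Ncapg -0.18 and -0.11. Ncapg overlaps Lcorl, whose counts were 30.3% of its own.

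At the kinetochore, Ndc80, which grips the ends of microtubules, was at 107, 114 and 105 CPM in saline germ and 87.5, 78.8 and 112 CPM in dex germ libraries. In somatic cells it was at 41.6, 41.5 and 45 CPM and 33.9, 37.9 and 40.5 CPM. Dex germ library 3 was as high as the saline libraries, and the somatic groups were separated by a narrow margin. The log2 fold change was -0.24 (SE 0.11, adjusted p = 0.324) in germ and -0.16 (SE 0.12, adjusted p = 0.566) in somatic cells.

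Cenpa, the histone H3 variant that marks the centromere, was at 133, 137 and 155 CPM and 120.2, 132 and 128 CPM in saline and dex germ libraries. Its somatic values were 103, 96.6 and 126 CPM and 85.3, 69.6 and 87 CPM. The groups did not overlap in either population, by a small gap in germ cells, and Cenpa had one of the 3 most negative somatic values, -0.40 (SE 0.12, adjusted p = 0.0819), against -0.17 (SE 0.08, adjusted p = 0.332) in germ cells. Cenpf, a large protein of the outer kinetochore, had -0.31 in germ and -0.30 in somatic cells and was separated in both. Nuf2, the partner of Ndc80, had -0.26 and -0.27, and the motor Cenpe had -0.25 and -0.15, both separated in somatic cells alone.

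In the chromosomal passenger complex, Aurkb, the kinase that corrects faulty attachments, was at 66.2, 61.8 and 60.5 CPM in saline germ and 51.7, 47.4 and 63.3 CPM in dex germ libraries. The somatic libraries had it at 79.8, 72.9 and 68.1 CPM with saline and 61.5, 55.2 and 56.3 CPM with dex. Dex germ library 3 fell within the saline range, and all dex somatic libraries were under all saline somatic ones. With dex the log2 fold change was -0.23 (SE 0.11, adjusted p = 0.357) in germ and -0.32 (SE 0.10, adjusted p = 0.105) in somatic cells.

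Birc5 was at 55.5, 52.9 and 52.6 CPM and 41.8, 45.9 and 57.1 CPM in saline and dex germ libraries, and dex library 3 was the highest of the 6. Somatic cells had it at 73.4, 69.3 and 74.4 CPM and 50.7, 69.4 and 64.4 CPM, with dex library 2 level with the lowest saline library. This gave a log2 fold change of -0.16 (SE 0.11, adjusted p = 0.549) in germ and -0.20 (SE 0.12, adjusted p = 0.448) in somatic cells. Incenp had -0.31 in germ and -0.27 in somatic cells and was separated in both. Cdca8 (borealin) had -0.22 and -0.16, and it overlaps 9930104L06Rik, whose counts were 18.4% of its own.

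In the spindle checkpoint, Bub1, a checkpoint kinase of the kinetochore, was at 179, 172 and 155 CPM in saline germ and 165, 142 and 184 CPM in dex germ libraries. The germ groups were interleaved, with dex library 3 highest and dex library 2 lowest of the 6. In somatic cells it was at 51, 61.2 and 61.4 CPM and 38, 47.1 and 50.3 CPM, separated by less than 1 CPM. The fitted log2 fold change was -0.06 (SE 0.09, adjusted p = 0.836) in germ and -0.32 (SE 0.12, adjusted p = 0.197) in somatic cells, and the germ value was 0.039 without dex library 2.

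Bub1b (BUBR1), part of the complex that inhibits CDC20, was at 238, 251 and 251 CPM and 207, 221 and 237 CPM in saline and dex germ libraries. Its somatic values were 86, 121 and 91.4 CPM and 76.3, 62.7 and 81 CPM. Dex lay under saline in both populations, narrowly in germ cells. It had the most negative somatic log2 fold change of the 40, -0.40 (SE 0.12, adjusted p = 0.0747), against -0.17 (SE 0.07, adjusted p = 0.276) in germ cells.

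Ttk (MPS1), the kinase that starts checkpoint signalling, was at 101, 98.4 and 93.8 CPM in saline germ and 81.8, 68.9 and 98.7 CPM in dex germ libraries. The somatic libraries had it at 34.5, 36.5 and 37.7 CPM and 25.6, 30.4 and 25 CPM. Only dex germ library 3 overlapped its saline group. Its log2 fold change was -0.24 (SE 0.11, adjusted p = 0.32) in germ and -0.39 (SE 0.12, adjusted p = 0.102) in somatic cells.

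Cdc20 was at 216, 213 and 240.0 CPM and 166, 197 and 203 CPM in saline and dex germ libraries. Somatic cells had it at 122, 127 and 120.5 CPM and 106, 101 and 104 CPM. The groups were apart in both populations, and here dex germ library 1 was the lowest. The log2 fold change was -0.25 (SE 0.08, adjusted p = 0.155) in germ and -0.22 (SE 0.08, adjusted p = 0.157) in somatic cells. It overlaps Elovl1, whose counts were 21.7% of its own. Mad2l1, another CDC20 inhibitor, had -0.23 and -0.20, and Espl1 had -0.23 and -0.24.

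Of the spindle assembly genes, Kif11, the motor that pushes the spindle poles apart, was at 203, 208 and 175 CPM in saline germ and 153, 142 and 176 CPM in dex germ libraries. The somatic libraries gave 101, 121 and 101 CPM and 84.9, 89.3 and 86.6 CPM. In germ cells dex library 3 met saline library 3, and in somatic cells the groups were apart. With dex the log2 fold change was -0.33 (SE 0.09, adjusted p = 0.0966) in germ, the second most negative there, and -0.27 (SE 0.08, adjusted p = 0.0927) in somatic cells.

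Tpx2, which activates Aurora A and nucleates microtubules, was at 149.8, 156 and 156 CPM and 127, 122 and 136 CPM in saline and dex germ libraries. In somatic cells it was at 163, 170.1 and 154 CPM and 127, 142 and 149.7 CPM. It was separated in both populations, at -0.27 (SE 0.07, adjusted p = 0.0852) in germ and -0.18 (SE 0.08, adjusted p = 0.301) in somatic cells.

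Hmmr was at 50.2, 49.9 and 47 CPM in saline germ and 48.8, 40.9 and 50.2 CPM in dex germ libraries, where dex library 2 alone lay under the saline group. The somatic libraries had it at 48.5, 55 and 55.7 CPM and 43.2, 47.8 and 52.9 CPM, with dex library 3 among the saline libraries. This gave a log2 fold change of -0.08 (SE 0.11, adjusted p = 0.777) in germ and -0.11 (SE 0.11, adjusted p = 0.702) in somatic cells, and the germ value was 0.0065 without dex library 2. The microtubule depolymerase Kif2c had -0.15 and -0.21. Nusap1, which bundles spindle microtubules, had -0.17 and -0.26, and it overlaps Oip5, whose counts were 18% of its own.

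For cytokinesis, Prc1, the bundler of central spindle microtubules (chr7:80294450-80316259, mm10), was at 103, 122 and 97.8 CPM in saline somatic and 77.2, 80.2 and 84.7 CPM in dex somatic libraries. It fell in somatic cells by 23.1%, a log2 fold change of -0.38 (SE 0.09, adjusted p = 0.0234), the smallest adjusted p of the 40 genes there. In germ cells it was at 129.7, 122 and 132 CPM with saline and 109, 98.1 and 119 CPM with dex, also apart, at -0.25 (SE 0.08, adjusted p = 0.174). The somatic call was kept without saline somatic library 3, and leaving out any other somatic library gave adjusted p of 0.0608 to 0.106. Prc1 overlaps Rccd1, whose counts were 17.4% of its own.

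Anln (anillin), which links the contractile ring to the membrane, was at 228, 239.5 and 194 CPM and 197, 184 and 217 CPM in saline and dex germ libraries. Somatic cells had it at 79.4, 100.4 and 84.4 CPM and 84.4, 83.9 and 79.7 CPM. Saline somatic library 2 alone was clearly above the rest, and the value was 0.014 without it. The fitted log2 fold change was -0.16 (SE 0.09, adjusted p = 0.445) in germ and -0.05 (SE 0.09, adjusted p = 0.838) in somatic cells, the latter the least negative of the 40.

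Ect2, which activates RhoA at the cleavage site, was at 106, 116 and 91.9 CPM in saline germ and 97.2, 91.9 and 108 CPM in dex germ libraries. Its somatic values were 47, 66.4 and 56.7 CPM and 39, 47.5 and 46.5 CPM. The groups overlapped in both populations, broadly in germ cells and by dex library 2 in somatic cells. Its log2 fold change was -0.09 (SE 0.10, adjusted p = 0.729) in germ and -0.32 (SE 0.13, adjusted p = 0.216) in somatic cells.

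Racgap1, a subunit of centralspindlin, was at 149.7, 157 and 174 CPM and 163, 141 and 171 CPM in saline and dex germ libraries, with dex libraries 1 and 3 inside the saline range. In somatic cells it was at 185, 203 and 189 CPM and 169, 176 and 145 CPM, without overlap. The log2 fold change was -0.03 (SE 0.09, adjusted p = 0.931) in germ and -0.20 (SE 0.08, adjusted p = 0.243) in somatic cells, and the germ value was 0.055 without dex library 2 and 0.035 without saline library 3. Its partner motor Kif23 had -0.26 and -0.31 and was separated in both populations. Kif20a, another central spindle motor, had -0.13 and -0.38, and of its sequence words 24.1% recur in other genes, with counts of the overlapping Cdc23 at 70.6% of its own.

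The dex effect in germ cells minus that in somatic cells was fitted with all 12 libraries, to test whether the populations differed. None of the 40 genes was called, and 0.827% of the 20551 genes tested were. None was at an unadjusted p at or under 0.05 in edgeR, and DESeq2 called 0. The smallest unadjusted p was 0.0582, with an adjusted p of 0.402, for Kif20a, which is singled out after its values were seen. Its difference was 0.28 with a 95% interval of -0.01 to 0.58. The median difference over the 40 genes was 0.07, against 0.03 over all genes tested, so a part of it is shared by genes at large. The decrease was larger in somatic cells for 27 genes and larger in germ cells for 13. The median SE of a difference was 0.14. Intervals of all 40 spanned 0, between a lowest bound of -0.57 and a highest of 0.79, so these data do not show that the populations respond alike. Gene by gene the log2 fold changes in germ and in somatic cells had a Pearson r of -0.02 and a Spearman rho of -0.02 over the 40 genes, which share libraries within a population and are not independent. Of the marker genes, Col1a1 and Fshr were called lower and Ddx4, Pecam1 and Mrc1 higher in germ than in somatic cells in this difference of dex effects. For 2 of them the call rests on values near 0 in 1 population. Ddx4 was at 0.396 to 1.67 CPM in somatic libraries. Fshr had means of 0.54 CPM in saline germ and 0.05 CPM in dex germ libraries.

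Other genes of mitosis had medians nearer 0 than the 40 genes. The 40 genes and these lists were both drawn up with earlier results of these data known, so the choice of genes may enter this difference. Of 112 further mitosis genes 91 had a negative log2 fold change in germ cells, with a median of -0.09. There 0 were called, while 23 were lower at an unadjusted p at or under 0.05. Over all genes tested in germ cells 50.4% were negative and 7.69% were lower at that p. In somatic cells 89 of the 112 were negative, with a median of -0.16. At an unadjusted p at or under 0.05, 30 were lower and 2 higher, and 2 were called, both lower. Over all genes tested in somatic cells 51.2% were negative, 7.21% were lower at that p and 1.17% were called lower. The 2 called, a share near that of all genes, were Arhgap11a and Hjurp. Arhgap11a, a RhoA regulator of cytokinesis, was at -0.55 (SE 0.10, adjusted p = 0.00477). Hjurp, the chaperone that deposits CENP-A, was at -0.46 (SE 0.10, adjusted p = 0.0128). The further spindle assembly genes had the most negative median of these groups in germ cells, -0.17 (21 of 23 negative), and further cohesion and condensation genes the least, -0.003 (8 of 16 negative).

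DNA replication genes, which serve S phase, had medians of -0.10 in germ (36 of 44 negative, 0 called) and -0.08 in somatic cells (29 of 44 negative, 0 called). Regulators of mitotic transcription had medians of -0.04 (14 of 23 negative, 0 called) and -0.05 (13 of 23 negative, 1 called). The 1 called regulator was E2f1, an activator of S-phase genes, which rose in somatic cells at 0.37 (SE 0.09, adjusted p = 0.0327). Over all 16766 genes tested in somatic cells 655 were called in either direction, a share close to that of 1 in 23. At an unadjusted p at or under 0.05, 7 of the 23 regulators were lower and 4 higher in somatic cells. Of all genes, 7.21% were lower at that p. The most negative regulator there was E2f2, at -0.55 and not called.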

How the data were processed

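RNA was measured in 12 libraries (4 groups of 3), grouped and numbered by their labels. The authors selected mRNA on poly-dT beads, aligned it to mm10 with HISAT2 2.0.5 and counted reads per gene with featureCounts 1.5.0-p3, per the labels. The deposited count table holds raw, unnormalized counts. The deposited FPKM values equal the authors' counts divided by gene length and library total, times a further factor per library, which is not given in the sources used here and came to 0.960 to 0.984 in germ, 0.974 to 0.986 in saline somatic and 1.00 to 1.05 in dex somatic libraries. Annotation release and strand setting are not given in the sources used here, so reads of overlapping genes cannot be assigned with certainty. The authors' own comparison tables (fold changes, p-values, made with DESeq2 1.20.0) were not used.

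Each comparison was fitted on its 6 libraries with the edgeR 4.0.16 quasi-likelihood test (R 4.3.3), TMM normalization and the filterByExpr filter (minimum count 10). A gene was called at a Benjamini-Hochberg adjusted p at or under 0.05 over all genes tested. SE is the log2 fold change divided by the square root of F. The difference between populations was a contrast over 12 libraries. CPM used TMM over 12 libraries, and FPKM served for levels between genes. The fits were tested on simulated data. Between replicates the counts differed by more than sampling noise, so none was a copy. With 3 against 3 libraries, p-values measure the spread between pools of litters.

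The 40 genes and all lists (further mitosis genes, regulators of mitotic transcription, DNA replication, cell type markers) were chosen with earlier results of these data known. Values by library are given for genes called in a dex comparison, for the 3 most and 3 least negative log2 fold changes in each population, and for genes chosen to stand for their function. Genes of the other lists are named where called in a dex comparison. Shared sequence was counted as words of GENCODE M21 transcripts found in other genes. Alternatives were RLE size factors, library totals, no filter, 10 counts in every library, DESeq2 1.42.0, limma 3.58.1 on log2(FPKM + 0.1), a replicate block, 1 fit of all 12 libraries, and leaving out each library.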

Additional observations from a re-analysis of the deposited data

How the results depend on the processing

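With 3 libraries a group and log2 fold changes near -0.25, the number called depends on the fit. In germ cells 2 were called. The number was 1 with RLE size factors, 2 with library totals and with 10 counts required in every library, 6 without a filter, 8 with DESeq2, 0 with limma on FPKM, 0 in the fit of all 12 libraries, and 0 to 3 when leaving out 1 library. In somatic cells 3 were called, and the number was 4 with RLE, 14 with library totals, 10 without a filter, 5 with 10 counts in every library, 11 with DESeq2, 0 with limma, 6 in the fit of all 12 libraries and 0 to 2 when leaving out 1 library. The cause was not tested, beyond the smaller number of samples when a library is left out. The direction held throughout: 36 to 40 genes were negative in germ cells and 39 or 40 in somatic cells under every alternative. The germ median ran from -0.20 to -0.23, and from -0.16 (without dex germ library 2) to -0.30 (without dex germ library 3) when leaving out 1 library. The somatic median was -0.32 with library totals, where the median of all genes also moved, to -0.07, and ran from -0.23 to -0.28 when leaving out 1 library. The germ against somatic difference had 0 called in every fit, and germ against somatic cells under saline had 31 to 37.

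Leaving out 1 library turned the sign of 6 weak values. In germ cells Cdc25c ran from -0.12 to 0.12, Bub1 from -0.15 to 0.039, Hmmr from -0.14 to 0.0065 and Racgap1 from -0.083 to 0.055. In somatic cells Aurka ran from -0.15 to 0.089 and Anln from -0.11 to 0.014.

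Libraries of different groups share replicate numbers. Deviations from the group means of same-numbered libraries had correlations of -0.14 to 0.08 over all pairs of groups. Between saline germ and saline somatic libraries these were 0.06 to 0.08, against -0.05 to -0.02 for other numbers, so each correlated best with its own number. Between dex germ and dex somatic libraries they were -0.02 to 0.01, against -0.03 to 0.04. Between dex germ and saline germ libraries they were -0.14 to 0.06, against -0.12 to 0.20 for other numbers. That 0.20, between dex germ library 2 and saline germ library 3, was the highest of any pair of groups. A pairing of the saline fractions is thus possible, and the main fits did not use one. With a replicate block, which joins same-numbered fractions in the fit of germ against somatic cells under saline, 33 genes were called there. In the dex fits the block instead joins dex and saline libraries of the same number, which is not that pairing. With it 0 genes were called in germ and 4 in somatic cells. These dex counts are no check of the pairing of fractions.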
